A study of Mus musculus with 8 samples.

Results

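The transcription factor gene Trp53, which encodes p53, and 9 genes tied to it were followed in NIH3T3 fibroblast clones made to overexpress 14-3-3ε. The 10 genes were taken by symbol from the RNA-seq table, which lists 24062 genes. They are Trp53, its negative regulators Mdm2 and Mdm4, the targets Sesn1, Sesn2, Ccng1, Bax and Bbc3, and the mitotic genes Gtse1 and Ckap2. All 10 had an adjusted p-value in that table. NIH3T3 is an immortalised mouse embryo fibroblast line. Control clones 2 and 3 carried a control vector, and 14-3-3ε clones 10 and 12 carried a plasmid in which a CMV promoter drives FLAG-tagged 14-3-3ε. The labels give 1 protocol for all samples, with selection in G418 at 800 µg/mL, picking of single colonies and a western blot for the FLAG tag, but word it for cells that received 14-3-3ε constructs. All clones grew in medium with 10% serum. RNA-seq and reduced representation bisulfite sequencing (RRBS, which reads methylation at CpG-rich fragments) each covered the same 4 clones, so each group held 2 clones per assay.

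p53 is kept scarce in unstressed cells by Mdm2, a ubiquitin ligase, and is held inactive by the related protein Mdm4. On DNA damage or other stress p53 is freed and switches on genes that stop the cell cycle, repair damage, tune metabolism or start apoptosis, Mdm2 itself among them as a feedback. Through its target Cdkn1a (p21) it also lets the DREAM complex, a repressor of cell cycle genes, bind promoters of mitotic genes. 14-3-3 proteins are known to bind phosphorylated p53 and phosphorylated Mdm4.

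Each table holds the authors' own comparison and no value per clone, so values per clone and the spread between clones cannot be shown. Positive values were read as higher in 14-3-3ε clones, a sign that the tables do not state. A gene was called at the authors' adjusted p under 0.05. By this rule 10.9% of 11482 tested genes were called, 6.15% higher and 4.74% lower. Ywhae, the mouse gene for 14-3-3ε, stood at a log2 fold change of -0.03 (standard error 0.18, adjusted p 0.942) in the authors' deposited table, so it gave no check of the labels or the sign. Whether reads from the plasmid would be counted under Ywhae is not stated, and every direction below is that of clones labelled 14-3-3ε against clones labelled control. All 7 fibroblast markers examined were tested, with mean normalized counts of at least 4843. Of these, Pdgfrb rose by 1.36, Col1a1 by 0.98 and Col1a2 by 0.89 on the log2 scale in the authors' deposited table. The 12 markers of epithelium, blood, endothelium and muscle found in the table had means of at most 110, with Kdr and Myog listed at 0. Among them the muscle gene Des, at a mean of 58.9, fell by 1.28 in the authors' deposited table. Whether these marker changes bear on the results below was not tested.

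Sequence is shown for the 3 genes that changed, with the promoter motifs that p53, DREAM and the factor NF-Y are known to read. Each line gives the 250 bases before an annotated start in RefSeq's GRCm38.p6, read 5′ to 3′ on the gene's strand. Capitals mark TTTGAA, the core of the cell cycle homology region (CHR) that DREAM reads, in Ckap2 (chr8:22185820-22186069, minus strand). They mark CCAAT or its reverse complement ATTGG, the box bound by NF-Y, in Gtse1 (chr15:85859457-85859706, plus strand). In Sesn1 (chr10:41887189-41887438, plus strand, before the downstream of its 2 starts) they mark the p53 decamer, the unit that a p53 response element holds as a pair. Only 1 motif is marked per gene, and other matches stay in lower case. The Ckap2 line also holds a p53 decamer and ATTGG, beginning 203 and 20 bases before the start. The Sesn1 line also holds ATTGG, beginning 91 bases before the start.
Ckap2: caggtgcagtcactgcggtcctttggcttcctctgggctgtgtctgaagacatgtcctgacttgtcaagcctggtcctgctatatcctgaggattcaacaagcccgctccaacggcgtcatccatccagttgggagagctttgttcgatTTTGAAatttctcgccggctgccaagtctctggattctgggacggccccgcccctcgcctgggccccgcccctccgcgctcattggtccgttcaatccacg
Gtse1: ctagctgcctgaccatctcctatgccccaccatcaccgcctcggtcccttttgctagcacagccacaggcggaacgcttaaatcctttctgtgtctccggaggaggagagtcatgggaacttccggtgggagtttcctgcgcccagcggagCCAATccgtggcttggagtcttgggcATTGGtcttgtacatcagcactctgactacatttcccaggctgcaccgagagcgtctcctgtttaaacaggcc
Sesn1: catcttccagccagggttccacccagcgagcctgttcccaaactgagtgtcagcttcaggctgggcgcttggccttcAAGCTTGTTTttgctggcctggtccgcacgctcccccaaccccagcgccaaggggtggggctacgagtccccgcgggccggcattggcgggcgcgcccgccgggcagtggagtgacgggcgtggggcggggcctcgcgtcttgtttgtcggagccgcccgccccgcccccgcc

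All 10 genes had entries in the promoter table, 15 starts in all. Both strands were searched in the 300 bases from 250 before to 50 after each start. The CHR core (TTTGAA, its reverse complement TTCAAA, or TTCGAA) was found at 2 of the 10 genes, Ckap2 and Bax, and at 21.7% of all 27025 genes with a promoter. In Ckap2 it began 101 bases before the start. CCAAT or ATTGG was found at 8 of 10 genes against 41.1% of all genes. It stood 3 times in the first promoter of Gtse1, with 2 copies in the bases printed above beginning 99 and 73 bases before the start. The p53 decamer was found at 7 of 10 genes, namely Trp53, Mdm2, Sesn1, Ccng1, Bax, Gtse1 and Ckap2, and at 9.55% of all genes. These are matches of letters only, and the genes were picked as p53 and genes with known ties to it, so the share is a description.

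Of the 10 genes, Sesn1 rose and Gtse1 and Ckap2 fell, which is 3 called beside a background of 10.9%. All 3 also passed at adjusted p under 0.01, where the background was 5.79%. With a change of at least 2-fold required as well, Ckap2 alone of the 10 passed, against 3.95% of tested genes. Trp53, Mdm2, Mdm4 and the apoptosis genes were not called. The median log2 fold change of the 10 genes was -0.27, against -0.003 for all genes tested, and 8 of the 10 were below 0. The estimates of the 7 uncalled genes ran from -0.32 to 0.30. With 2 clones per group, an effect of 14-3-3ε and differences between clones cannot be told apart.

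**Figure D1:**
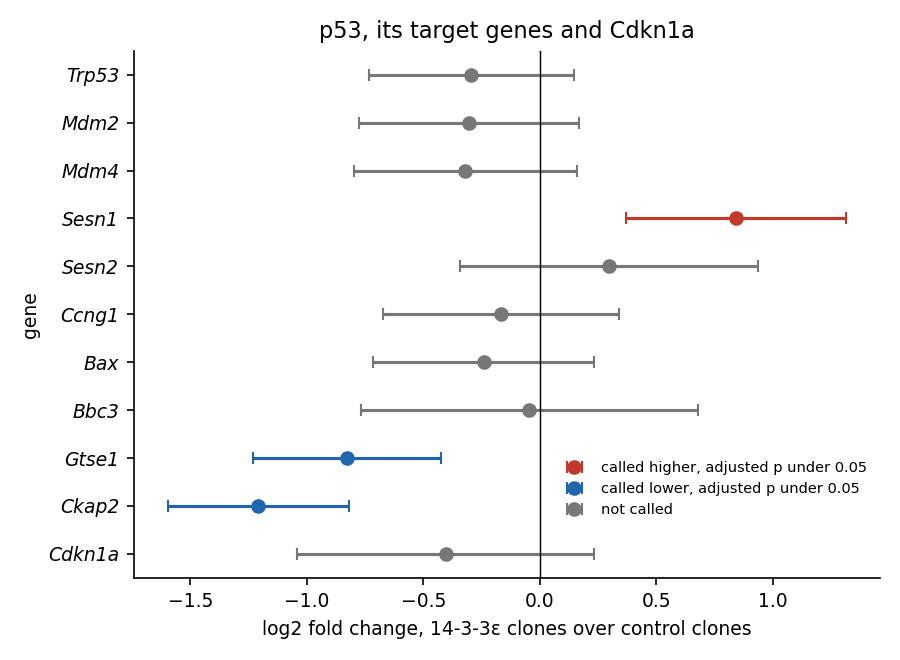
Log2 fold change (14-3-3ε clones over control clones, horizontal axis) of the 10 genes and Cdkn1a, with bars of 95% intervals taken as 1.96 deposited standard errors on each side. Sesn1 lies above 0, Gtse1 and Ckap2 below it, and the other 8 intervals include 0.

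Trp53 lies on chromosome 11 from 69580348 to 69591873. Its mean normalized count over the libraries was 4051 and its log2 fold change -0.29 (standard error 0.22, adjusted p 0.456) in the authors' deposited table. The 95% interval ran from -0.73 to 0.15, that is from 0.601 to 1.11 times the control level. RefSeq lists a pseudogene, Trp53-ps, on chromosome 17, and the sources used here do not say how reads shared with it were counted. The neighbouring gene Wrap53, which runs from the opposite strand and whose span ends at 69580250, stood at -0.03 (adjusted p 0.975) in the authors' deposited table.

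The genes of the negative regulators gave similar estimates. Mdm2 (chromosome 10, 117688875 to 117710758) encodes the ubiquitin ligase that p53 induces and that marks p53 for destruction. It had a mean normalized count of 4336 and a log2 fold change of -0.30 (standard error 0.24, adjusted p 0.478) in the authors' deposited table, with an interval from -0.78 to 0.17. Mdm4 (chromosome 1, 132986105 to 133030587) encodes the partner that blocks the activating domain of p53. It stood at 3193 counts and -0.32 (0.24, adjusted p 0.454) in the authors' deposited table, with an interval from -0.80 to 0.16. A pseudogene and a long non-coding RNA gene overlap Mdm4 in RefSeq, so the split of reads there is uncertain. Trp53, Mdm2 and Mdm4 sat between the 21st and the 23rd percentile of all tested genes by fold change.

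The sestrins bind amino acid sensing complexes and restrain the growth kinase TORC1 under stress. Sesn1 (chromosome 10, 41810574 to 41908436) rose 1.79-fold, with a 95% interval of 1.29 to 2.49. In the authors' deposited table it had a mean normalized count of 720, a log2 value of 0.84 (standard error 0.24) and adjusted p 0.00834. It ranked 540 from the top of 11482 genes by fold change. Sesn2 (chromosome 4, 132492804 to 132510456), the family member most tied to stress other than DNA damage, was not called. In the authors' deposited table its mean normalized count was 1676 and its log2 fold change 0.30 (standard error 0.33, adjusted p 0.642). Its interval, from -0.34 to 0.94, includes the estimate for Sesn1, and the difference between both genes was not tested.

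Cyclin G1, the product of Ccng1, is a p53 target that recruits a phosphatase to Mdm2. Ccng1 (chromosome 11, 40748552 to 40755309) stood at 7743 counts and -0.17 (0.26, adjusted p 0.758) in the authors' deposited table. The apoptosis genes also were not called. Bax (chromosome 7, 45461695 to 45466903), whose product opens the outer mitochondrial membrane, stood at 2840 counts and -0.24 (0.24, adjusted p 0.600) in the authors' deposited table. Bbc3 (chromosome 7, 16308398 to 16318334) encodes Puma, a BH3-only activator of Bax. It had 626 counts and -0.04 (0.37, adjusted p 0.964) in the authors' deposited table. Bbc3 had the largest standard error of the 10, and its interval reached from 0.587 to 1.60 times control, so it was the least well measured.

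Gtse1 and Ckap2 encode microtubule-associated proteins made in the G2 and M phases. Gtse1 can carry p53 out of the nucleus and is itself a p53 target in mouse cells, and Ckap2 has been linked to p53 as well. Ckap2 (chromosome 8, 22168149 to 22185819) fell 2.31-fold, with a 95% interval of 1.76 to 3.03. In the authors' deposited table it had a mean normalized count of 2057, a log2 value of -1.21 (standard error 0.20) and adjusted p 1.4e-07. This placed it at rank 60 from the lowest of 11482 genes. Gtse1 (chromosome 15, 85859691 to 85876573) fell 1.78-fold, with an interval of 1.34 to 2.35. The authors' deposited table gave it a mean normalized count of 1069 and a log2 value of -0.83 (standard error 0.21, adjusted p 0.00159), at rank 301 from the lowest.

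**Figure D2:**
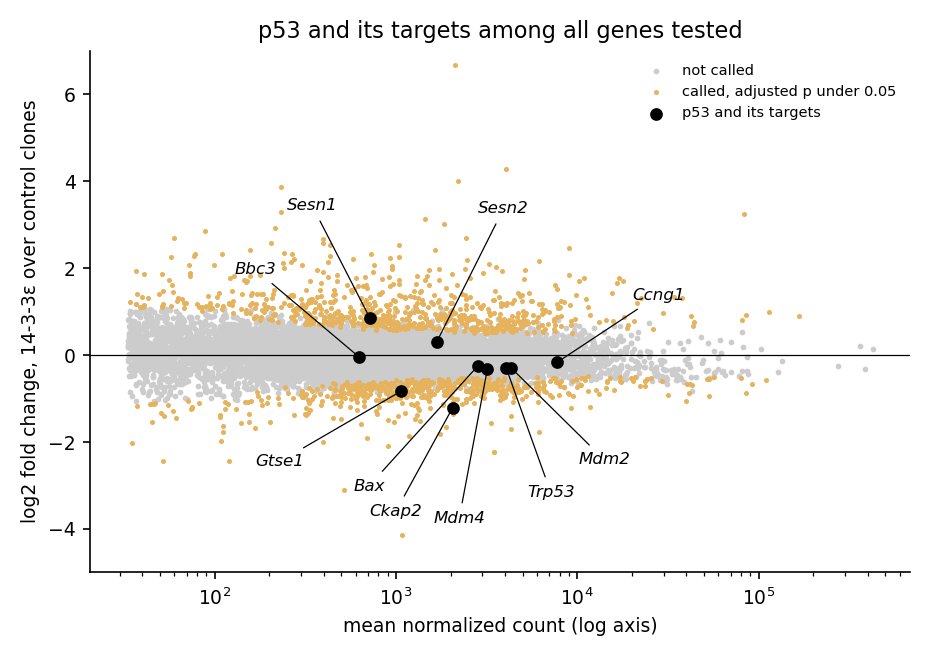
Log2 fold change (vertical axis) against mean normalized count (horizontal log axis) for 11482 tested genes, with the 10 genes in black. Ckap2, Gtse1 and Sesn1 lie among the called genes, and the other 7 lie inside the band of uncalled genes. Counts are not per length and do not rank genes by level.

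Genes taken as p53 targets, with Mdm2, Sesn1, Sesn2, Ccng1, Bax and Bbc3 among them, were counted from a list of 63 symbols. Of these, 62 were in the table and 56 were tested. Among the 56, 5 rose and 1 fell, 10.7% against the background of 10.9%. Their median log2 fold change was -0.04, with 24 estimates above 0 and 32 below. With the genes already among the 10 left out, 50 were tested, 4 rose and 1 fell (10%), and the median was again -0.04. Cdkn1a, the p21 gene and best known target, was not called and stood at -0.40 (standard error 0.32, adjusted p 0.484) in the authors' deposited table. Uncalled targets lay on both sides of 0, from Ptprv at -0.90 to Ccng2 at 0.57 in the authors' deposited table. Between these stood Gadd45a at -0.38, Zmat3 at -0.33, Btg2 at 0.28 and Apaf1 at 0.43 in the authors' deposited table. Beside Sesn1, the list's rises were Trp53inp2 at 1.73, Thbs1 at 0.91, Abhd4 at 0.72 and Lpin1 at 0.60, and its fall was Bid at -0.65, in the authors' deposited table. Trp53inp2 acts in autophagy, thrombospondin-1 from Thbs1 is a matrix glycoprotein, and Lpin1 encodes a phosphatidate phosphatase. The list was set for this report, and whether p53 controls Trp53inp2 or its other genes was not tested. Of the family members of p53, Trp63 stood at -0.31 (adjusted p 0.701) and Trp73 had a mean normalized count of 2.64 with no adjusted p in the authors' deposited table.

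Among regulators and partners of p53, 49 of 52 listed symbols were tested, and 2 rose and 3 fell (10.2% against 10.9%). Ppp1r13b, which encodes ASPP1, a protein that steers p53 to apoptosis genes, rose by 1.11 (standard error 0.35, adjusted p 0.0204) in the authors' deposited table. In the authors' deposited table Pml, the scaffold of nuclear bodies where p53 is modified, rose by 0.80 on the log2 scale. By the authors' deposited table, Npm1, whose nucleolar product binds Mdm2, fell by 0.87, the deubiquitinase gene Usp10 fell by 0.64 and the DNA repair kinase gene Prkdc fell by 0.63. The checkpoint kinase genes Atm, Atr, Chek1 and Chek2 were not called, at -0.35, -0.58, -0.77 and -0.59 in the authors' deposited table. Cdkn2a, whose Arf product inhibits Mdm2, was listed at a mean normalized count of 0 in the authors' deposited table.

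Of the 5 lists, the cell cycle genes linked to DREAM, Gtse1 and Ckap2 among them, had the largest share called. All 46 listed genes were tested, 17 fell and none rose, which is 37.0% called against 4.74% of all genes called lower. All 46 estimates were negative, with a median of -0.63 against -0.003 for all genes tested. Without Gtse1 and Ckap2 the counts were 15 of 44 and the median was -0.61. Ckap2 had the largest fall of the 46. In the authors' deposited table Mcm2 to Mcm7, the listed genes of the replicative helicase, were all called. They stood at -1.03 for Mcm3, -1.01 for Mcm5, -0.90 for Mcm6, -0.81 for Mcm7, -0.79 for Mcm4 and -0.70 for Mcm2. Also called in the authors' deposited table were Ect2 (cytokinesis) at -0.96, Pcna (the replication clamp) at -0.84, Rrm1 (nucleotide reduction) at -0.83, Ccna2 (cyclin A2) at -0.79 and Cenpe (a kinetochore motor) at -0.78. The list was chosen with earlier results known, so its direction is no independent evidence. In these bulk samples, fewer cells in S, G2 or M phase and less RNA per such cell cannot be told apart. By sequence, the CHR core was found at 20 of the 37 listed genes with a promoter entry (54.1%, against 21.7% of all genes). CCAAT or ATTGG was found at 30 of the 37 (81.1% against 41.1%). The genes were picked as linked to DREAM, which reads the CHR, so these shares are a description.

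With Bax and Bbc3 included, 22 genes of the Bcl2 family and the apoptosome were tested, and 2 rose and 1 fell (13.6% against 10.9%). The BH3-only gene Bmf rose by 1.39 (0.26) and the initiator caspase gene Casp9 by 0.70 (0.25), while Bid was the one that fell, in the authors' deposited table. In the sestrin and TORC1 pathway 21 genes were tested, and 2 rose and none fell (9.52% against 10.9%). These were Sesn1 and Sesn3, the third sestrin gene, which FoxO factors induce. Sesn3 rose 3.88-fold, by 1.96 on the log2 scale (standard error 0.29, adjusted p 1.13e-09) in the authors' deposited table. The sestrins thus stood at 1.96, 0.84 and 0.30 for Sesn3, Sesn1 and Sesn2 in the authors' deposited table.

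**Figure D3:**
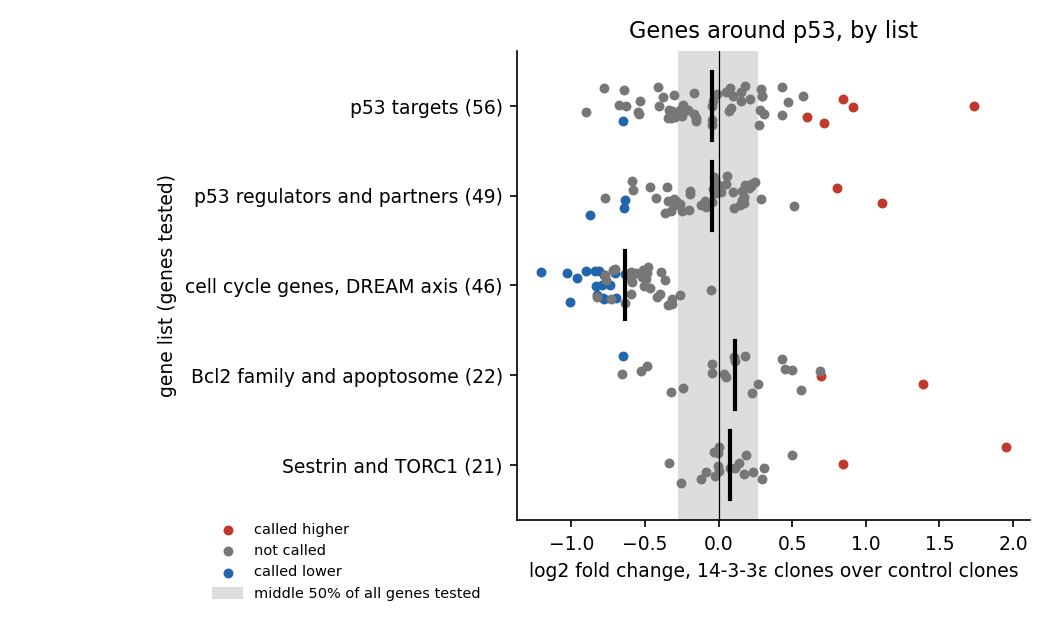
Log2 fold change (horizontal axis) of every tested gene in the 5 lists, with list medians as black bars and the middle 50% of all 11482 tested genes in grey. The cell cycle list lies wholly below 0, while the medians of the other 4 lists lie between -0.04 and 0.11.

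Methylation was then sought near the 15 annotated starts of the 10 genes. The upstream Mdm4 start, at 133030587, had no listed cytosine within 1000 bp, so Mdm4 was read only near its downstream start. From 250 bp before to 50 bp after a start, no cytosine was listed for Trp53, Mdm4 or Bax. Positions are in build mm10, and every one of 277792 listed cytosines inside promoters fell on a C of its strand in the GRCm38.p6 sequence. The table gives the difference in percent methylation, not the level, and no coverage, so the depth behind each value is unknown. Within 1000 bp of a start, 809 cytosines were listed and 16 were called at q under 0.05. That is 1.98%, against 3.34% in the same windows of all genes. Of the 16, 12 were higher (1.48% against 1.44%) and 4 lower (0.494% against 1.9%). Bbc3 held 8 of the 16, and without it 8 of 630 were called (1.27%). At 4 of the 10 genes there was at least 1 call, against 55.9% of genes with a listed cytosine, and Mdm2, Mdm4, Sesn2, Ccng1, Bax and Ckap2 had none. Mean differences in the windows ran from -0.36 points for Trp53 to 0.93 for Ccng1. The sources used here do not say whether reads were pooled within groups, so the q-values need not hold the spread between clones.

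Sesn1 had 5 called cytosines, all higher, in a short stretch. They lay 153 to 250 bp after the downstream start, at 41887592 to 41887689 on chromosome 10 and inside the gene. Their differences in the authors' deposited table were 8.53, 19.0, 19.9, 8.62 and 10.4 points, the last pair being both strands of the same CpG. The other strands of the calls before that pair stood at 2.18 (q 0.416), 14.4 (q 0.0600) and 9.71 points (q 0.211), none of them called. In that stretch 24 cytosines were listed, 18 of them above 0, with a mean of 5.69 points. The stretch was drawn from the first to the last called cytosine, which by itself sets its mean above that of the other 67 in the window (0.347 points) and leaves those without a call. The 52 from 250 bp before to 50 bp after that start averaged -0.346. Around the upstream start of Sesn1, 94 cytosines were listed and none was called. Of all genes with a listed cytosine in the window, 1.16% had at least 5 calls higher and none lower, a count chosen after the Sesn1 values were seen.

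Bbc3 is CpG-rich, with 179 cytosines listed in its start windows, and 6 were called higher and 2 lower. The first 3 higher calls lay 81 to 125 bp after the first start, with differences of 9.69, 8.25 and 9.44 points in the authors' deposited table. The leading pair were both strands of the same CpG, and the other strand of the last stood at 0.764 points (q 0.779). The other 5 lay 969 to 1118 bp after the first start and went both ways, from -14.9 to 18.5 points in the authors' deposited table. Of these, only the pair at 16310700 and 16310701 was called on both strands of a CpG. Over all 179 the differences averaged 0.00172 points. A further 4 of 202 cytosines in the rest of the gene were called, all higher, from 5.52 to 15.1 points in the authors' deposited table. No other strand of these was called. The values there were 11.1 (q 0.0863), 3.67 (q 0.676) and -0.741 points (q 0.849), with none listed beside the call at 16313825.

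Gtse1 had 46 listed cytosines near its starts and 2 calls. One, 596 bp before the first start, was lower by 25.2 points, with -15.5 (q 0.102) on its other strand, in the authors' deposited table. The other, 180 bp before the start and within the sequence printed above, was higher by 2.27 points in the authors' deposited table. Its other strand stood at 1.78 points (q 0.414) and was not called. Ckap2, the gene with the largest fall in RNA, had 58 listed cytosines near its start, none called, with a mean of -0.237 points. The 22 in its promoter averaged -0.994 points. Trp53 had 1 call among 34, at -5.26 points, with -5.14 (q 0.0531) on its other strand, in the authors' deposited table. Mdm2 had 172 listed cytosines with none called and a mean of -0.0239 points, the lowest q being 0.0902. Of genes with at least 100 listed cytosines, a group set after the Mdm2 values were seen, 75.4% had a call.

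Beyond the start windows, 322 cytosines were listed inside 6 of the 10 genes and 7 were called (2.17%, against 4.92% in bodies of all genes). Of these, 5 were higher (1.55% against 2.0%) and 2 lower (0.621% against 2.92%). Besides the 4 in Bbc3, single calls lay in Trp53 at 69584240 (-24.1 points, and -10.1 with q 0.0589 on the other strand), in Sesn1 at 41875058 (-6.86 points, and 2.81 with q 0.679 on the other strand) and in Gtse1 at 85866016 (31.1 points, and 0.548 on the other strand), in the authors' deposited table.

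Cdkn1a, which stands outside the 10 genes, had 7 of 69 cytosines called near its downstream start, all higher. They lay 576 to 733 bp after that start (chromosome 17, 29094345 to 29094502), with differences from 4.29 to 15.6 points in the authors' deposited table. The call at 29094384 stood alone, with 6.71 points (q 0.107) on its other strand. The rest were pairs on both strands of the same CpGs. In that stretch, again drawn from the first to the last call, 28 cytosines averaged 3.38 points. All 69 in the window averaged 1.19 points. Near its upstream start, whose promoter holds 2 p53 decamers, no cytosine was listed. Over the p53 target list, 95 of 3109 cytosines in start windows were called (3.06%, against 3.34%), 53 higher and 42 lower.

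**Figure D4:**
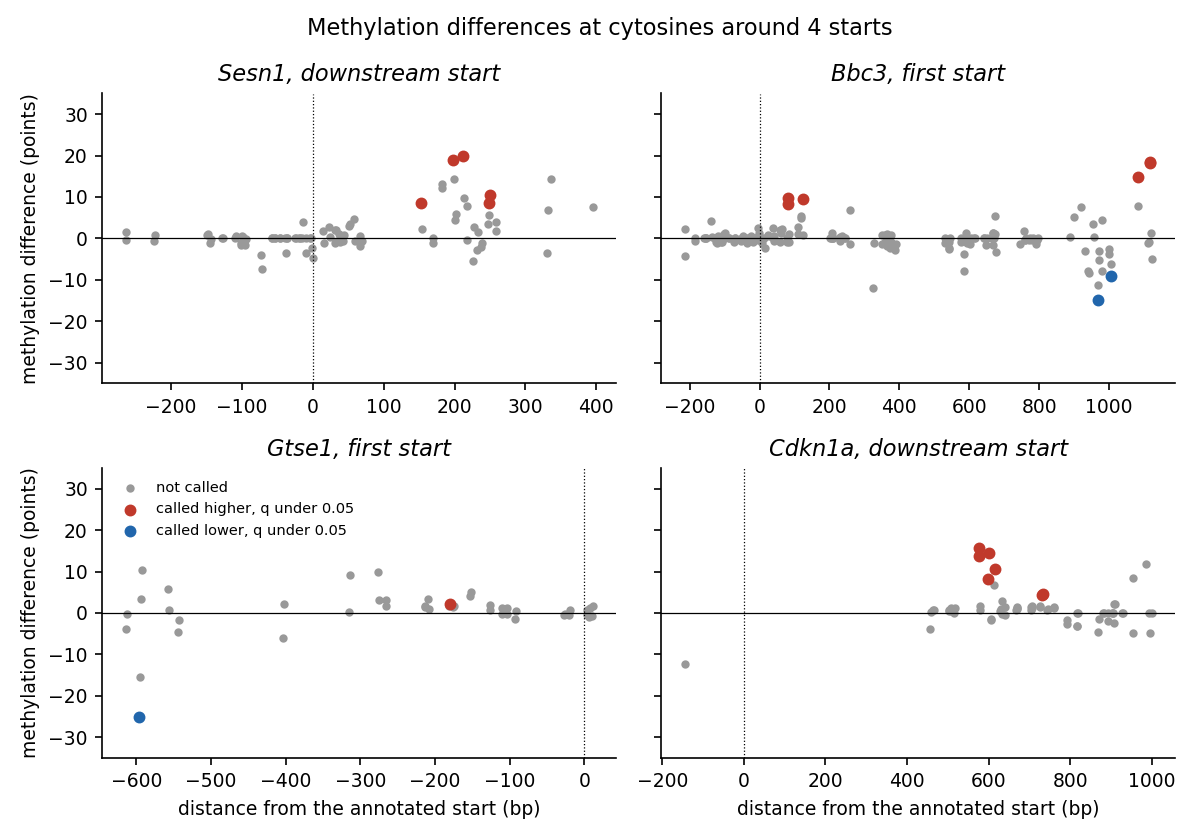
Difference in percent methylation (points, 14-3-3ε clones minus control clones, vertical axis) against distance from an annotated start (bp) for each listed cytosine, called ones in colour. Higher calls gather 153 to 250 bp after the Sesn1 start and 576 to 733 bp after the Cdkn1a start, while Bbc3 has calls of both signs and Gtse1 has 1 of each.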

How the data were processed

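RNA-seq and RRBS tables of the whole series were used, 1 for each assay, with 2 clones in each of 4 groups. The submitters' processing notes name Trim Galore, Bismark, Bowtie2, TopHat2, HTSeq, methylKit and DESeq2 and build mm10, without versions or settings. In the RNA-seq table the authors deposited a mean signal (read as the mean normalized count from its header name), a log2 fold change with its standard error, also log2, and a test score equal to their quotient. The authors deposited p-values for 17478 genes and adjusted p-values for 11482. These adjusted values equal Benjamini-Hochberg adjustment over those genes to within 2.18e-15. For RRBS, the authors deposited p-values, q-values and differences in percentage points per cytosine, and 253 duplicate lines were removed, leaving 2361680. Neither table gives sequencing depth, and intervals for counting error were not computed.

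Intervals are the estimate plus or minus 1.96 standard errors. The sources used here do not say whether the deposited fold changes were pulled towards 0 before deposit. Krt18 and Myod1, with a mean normalized count of 0.25, had a standard error of 0.11, against a median of 0.24 over tested genes. Fold changes, intervals and the 2-fold rule may thus rest on estimates pulled towards 0. Start windows span 1000 bp on each side of every start in RefSeq's GRCm38.p6 table, and calls were summed over starts of a gene, each cytosine once. The 10 genes, the 5 lists and the tests were chosen with earlier results of these data known. Named were all 10 genes, genes called in each list (at most 12, the largest changes first), Cdkn1a, Trp63, Trp73, Cdkn2a and Ywhae. Other genes named were chosen after their values were seen. With 1 comparison and no value per clone, no likeness of pattern was measured. No set test was run. The Benjamini-Hochberg and centring steps were tested on simulated data. Scripts used Python 3.11.15, pandas 2.3.3 and scipy 1.17.1. No other alternatives than those in the closing section were tried.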

Additional observations from a re-analysis of the deposited data

How the results depend on the processing

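Calls of Sesn1, Gtse1 and Ckap2 held at adjusted p under 0.01 and 0.1, with adjustment over all 17478 genes with a p, over genes with a mean of at least 100, and after centring on the median fold change. With at least 2-fold required as well, 1 of the 10 genes (Ckap2) was called. The p53 target list then had 1 called gene, Trp53inp2, and the regulator list 1. The cell cycle list had 3, the Bcl2 list 1 and the sestrin list 1. At adjusted p under 0.01 the counts were 3 targets, 2 regulators, 9 cell cycle genes and 1 Bcl2 gene, and at 0.1 the Bcl2 list had 7. Adjustment over all genes with a p left 3 regulators. Over all genes these rules called 453 of 11482 (3.95%, 2-fold), 665 (5.79%, 0.01) and 1739 (15.1%, 0.1), against 1250 (10.9%). Adjustment over all genes with a p called 1037 of 17478 (5.93%). With the deposited adjustment, the target, regulator, cell cycle, Bcl2 and sestrin lists held 56, 49, 46, 22 and 21 tested genes. In the start windows, a minimum of 25 points left 1 called cytosine. In gene bodies it left 1, and q under 0.01 left 3. Windows of 500 or 2000 bp, and q under 0.01 in the start windows, gave counts within 1.5 times of the 16. The 4 lower calls among them became 2 at q under 0.01 and 2 with 500 bp windows. No replicate could be left out, since no value per clone was analysed here. No paired analysis was possible because the tables hold no value per clone and the clones compared share no number. Unknown depth and 2 clones per group limit what could be detected: the standard errors of the 10 genes were 0.20 to 0.37 on the log2 scale.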

Other observations

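The Cdkn2a locus, from which NIH3T3 cells are known to have lost the Ink4a and Arf genes, was empty in both tables. Cdkn2a and its neighbour Cdkn2b were listed at a mean normalized count of 0 in the authors' deposited table. That value was shared by 6584 of the 24062 genes listed. Mtap, a neighbouring gene on chromosome 4, had 14593 in the authors' deposited table. No cytosine was listed between positions 89226342 and 89443049 on that chromosome, a stretch of 216.7 kb that holds both genes. Of 2298979 gaps between neighbouring listed positions on autosomes, 167 were as long or longer. The richest Cdkn2a promoter holds 45 CpGs, and of 590 genes with at least as many, itself included, 584 had a listed cytosine near a start and 6 had none.

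Ppp1r13b, the ASPP1 gene that rose, had 15 of 191 cytosines near its start called lower and none higher, with a mean of -2.90 points. Of all genes with a listed cytosine near a start, 2.06% had at least 5 calls lower and none higher. Fbxw7, a p53 target that encodes a ubiquitin ligase subunit, had 8 calls higher and 3 lower of 82. Its share called was 13.4%, against 3.34% of cytosines in start windows of all genes. Both genes were picked out after their values were seen.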
